A study of Homo sapiens with 6 samples.

Results

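TNS4 and 9 adaptor genes of the focal adhesion, the site where integrins anchor a cell to its matrix, were followed by RNA sequencing in cells labelled HT29, an established human colorectal cancer line. The members were TNS4, TNS3, TNS1, TLN1, VCL, PXN, ZYX, PTK2, ILK and BCAR1, 10 of the 56638 gene symbols listed in the count files. TNS4 was chosen from these same measurements, by its fold change between the groups, so its difference is described with no test. The other 9 were taken by name, as tensin relatives and as adaptors of the same structure, with earlier results of these data known. The 3 RNF6 siRNA libraries came from cells transfected with siRNA against RNF6, which encodes a RING-type E3 ubiquitin ligase. The 3 control libraries came from the same line, described as wild type, transfected with a nonspecific siRNA. Both groups were at passages 16 to 19, and the labels name no transgene or drug. The labels give neither the number of siRNA sequences nor the time between transfection and harvest. Nothing in them states that replicates came from separate cultures, and each p-value therefore covers the variation among these 6 libraries alone, which may be technical.

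At a focal adhesion, talin binds the cytoplasmic tail of an integrin and links it to actin, and vinculin strengthens that link under tension. Paxillin, focal adhesion kinase and p130Cas form a scaffold that passes on phosphotyrosine signals, zyxin joins as an adhesion matures, and integrin-linked kinase, a pseudokinase, holds the PINCH and parvin proteins. Tensins also bind integrin tails through a phosphotyrosine-binding domain. TNS4, also called cten, lacks the actin-binding N-terminal portion of the longer tensins. In mammary epithelial cells, epidermal growth factor is known to lower tensin 3 and raise TNS4, an exchange linked to cell migration.

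Reads assigned to genes ranged from 6808771 to 11071456 in the RNF6 siRNA libraries and from 7173957 to 9366532 in the control siRNA libraries. Levels are given as CPM, counts scaled to a common total of reads in genes with a factor for library composition, and 3 reads corresponded to between 0.269 and 0.443 CPM in a library. RNF6 itself, on chromosome 13, had 16.5, 16.2 and 16.9 CPM in RNF6 siRNA replicates 1, 2 and 3, against 54.3, 45.2 and 57.8 CPM in control siRNA replicates 1, 2 and 3. It was 3.17-fold lower (log2 fold change −1.66, SE 0.126, edgeR adjusted p = 2.12e-06). The label of the line was set beside markers of colon epithelium, but the identity of the line was not tested. EPCAM, CDH1 and CDX2 did not pass the test, whereas KRT8, KRT18, KRT19 and KRT20 were lower. The 11 markers summed to 2445 to 2829 CPM in RNF6 siRNA libraries and to 4351 to 5653 CPM in control siRNA libraries. Most of each sum was KRT8 and KRT19. KRT8 averaged 1256 CPM with RNF6 siRNA and 3064 CPM with control siRNA, and KRT19 averaged 872 CPM with RNF6 siRNA and 1321 CPM with control siRNA. CDX1 had 0 reads in all 6 libraries, and VIL1, LGALS4 and CEACAM5 had at most 5, 2 and 2 reads in a library, so these defining markers were at or near 0. Exons of USP37 cover 44% of VIL1, so its count is uncertain. Of 9 fibroblast markers 3 were tested: COL1A1 and ACTA2 were higher and PDGFRB did not pass (edgeR adjusted p = 0.44). COL1A2, COL3A1, DCN, LUM, PDGFRA and THY1 had at most 4 reads in a library. The fibroblast sums were 74.1 to 90.3 CPM in RNF6 siRNA libraries and 52.0 to 68.7 CPM in control siRNA libraries. Most of each sum was COL1A1, with means of 75.5 CPM with RNF6 siRNA and 56.7 CPM with control siRNA. Of 5 endothelial markers only VWF was tested, and it was lower. The endothelial sums were 1.26 to 2.36 CPM with RNF6 siRNA and 2.20 to 2.91 CPM with control siRNA, with PECAM1 at 0 reads in every library. The 7 leukocyte markers summed to 0.886 to 1.75 CPM with RNF6 siRNA and 1.65 to 3.09 CPM with control siRNA, with CD68 at 0 reads. Exons of other genes cover 85.8% of CD68, so its count is uncertain. The part of these marker differences in the results on adhesion genes was not tested. In such bulk libraries, fewer cells of a type and less RNA per cell cannot be told apart.

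TNS4, on chromosome 17, was at 23.1, 22.4 and 24.8 CPM in RNF6 siRNA replicates 1, 2 and 3, against 111.3, 102.9 and 102.5 CPM in control siRNA replicates 1, 2 and 3. The highest RNF6 siRNA library lay far below the lowest control siRNA library, and the spread within each group was small. The values rest on 251, 152 and 277 reads in the RNF6 siRNA libraries and on 809, 919 and 961 reads in the control siRNA libraries. The means were 23.5 ± 1.25 CPM with RNF6 siRNA and 105.6 ± 4.98 CPM with control siRNA (SD, n = 3 each), a 4.49-fold lower level (log2 fold change −2.17, SE 0.107). Of the 14685 genes with enough reads to be tested, TNS4 had the 12th lowest log2 fold change. Under 13 other scalings, tests and sets of libraries it was between 4.39-fold and 4.64-fold lower.

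**Figure D1:**
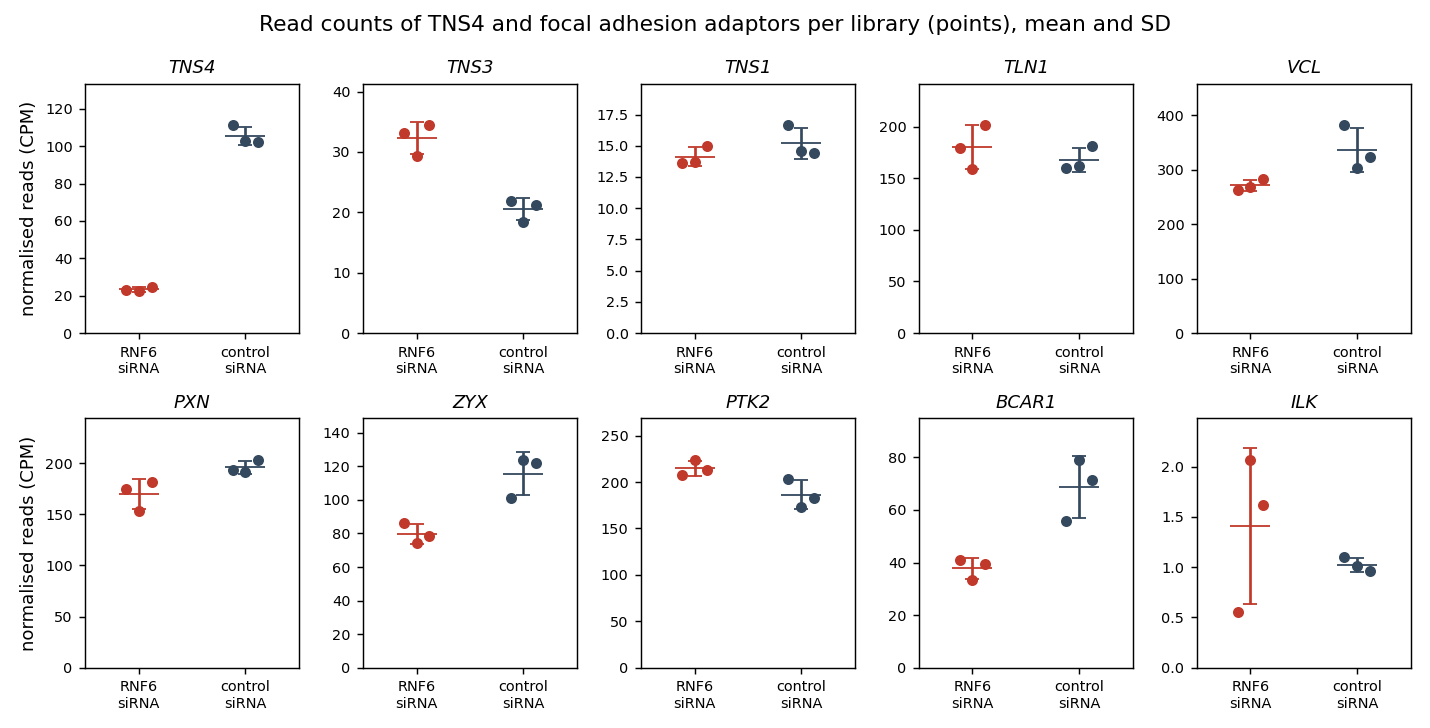
Normalised reads (CPM, linear axes from 0) of the 10 genes in each library, with RNF6 siRNA on the left and control siRNA on the right of each panel; points are libraries, bars the mean and SD of 3. TNS4 averaged 23.5 CPM with RNF6 siRNA and 105.6 CPM with control siRNA, while TNS3 is the other way round, at 32.3 CPM with RNF6 siRNA and 20.5 CPM with control siRNA.

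TNS3, on chromosome 7, encodes a long tensin with the actin-binding part that TNS4 lacks, and it moved in the opposite direction. It had 33.1, 29.4 and 34.4 CPM in RNF6 siRNA replicates 1, 2 and 3, against 21.9, 18.5 and 21.2 CPM in control siRNA replicates 1, 2 and 3. Every RNF6 siRNA library was above every control siRNA library. The means were 32.3 ± 2.63 CPM with RNF6 siRNA and 20.5 ± 1.81 CPM with control siRNA, a 1.58-fold higher level (log2 fold change 0.66, SE 0.123, edgeR adjusted p = 0.00143), and the call held under all 13 alternatives. TNS1, on chromosome 2, the founding long tensin, had 13.6, 13.7 and 14.98 CPM with RNF6 siRNA and 16.6, 14.5 and 14.4 CPM with control siRNA. These groups overlapped, and TNS1 did not pass the test (log2 fold change −0.10, with a 95% interval of −0.38 to 0.18, adjusted p = 0.593).

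The fourth family member, TNS2, is listed in the counts under its older symbol TENC1. It had 23.1, 15.3 and 21.7 CPM with RNF6 siRNA and 16.1, 14.997 and 15.1 CPM with control siRNA. RNF6 siRNA replicates 1 and 3 were above all control siRNA libraries and replicate 2 was among them, and the 1.32-fold higher mean did not pass (edgeR adjusted p = 0.0646). It passed without RNF6 siRNA replicate 2 (adjusted p = 0.0145) and without control siRNA replicate 1 (adjusted p = 0.0367).

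Read counts grow with transcript length, so the tensins were also set against each other as RPKM, that is CPM per kilobase of annotated exons. TNS4 then made up 42.3%, 47.0% and 44.0% of the family's RPKM in RNF6 siRNA replicates 1, 2 and 3, against 82.5%, 83.1% and 82.3% in control siRNA replicates 1, 2 and 3. The share averaged 44.4 ± 2.35% with RNF6 siRNA and 82.6 ± 0.429% with control siRNA, and since TNS4 was chosen on this difference it is given as a description. TNS3 held 25.1 ± 0.163% of the family with RNF6 siRNA and 6.60 ± 0.438% with control siRNA. TNS2 held 22.5 ± 3.08% with RNF6 siRNA and 7.23 ± 0.0716% with control siRNA, and TNS1 7.96 ± 0.565% with RNF6 siRNA and 3.54 ± 0.121% with control siRNA. All shares are parts of the same total, so those of the other tensins rise when TNS4 falls, and they are descriptions too. The share of TNS1 was higher although its own level was 0.866 RPKM with RNF6 siRNA and 0.934 RPKM with control siRNA. The ratio of TNS4 to TNS3 per length was 1.70, 1.86 and 1.76 in RNF6 siRNA libraries and 12.4, 13.6 and 11.8 in control siRNA libraries. TNS4 was thus still the leading tensin per length after RNF6 siRNA in every library, by a smaller margin. With the longest annotated transcript as the length, its mean share was 37.7% with RNF6 siRNA and 78.3% with control siRNA.

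The summed level of the 4 tensins was 10.9 ± 0.940 RPKM with RNF6 siRNA and 26.4 ± 1.28 RPKM with control siRNA. Without TNS4, the other tensins summed to 6.49, 5.23 and 6.52 RPKM in RNF6 siRNA replicates 1, 2 and 3, against 4.87, 4.31 and 4.56 RPKM in control siRNA replicates 1, 2 and 3. Every RNF6 siRNA library was above every control siRNA library in this sum, by far less than the difference in TNS4.

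**Figure D2:**
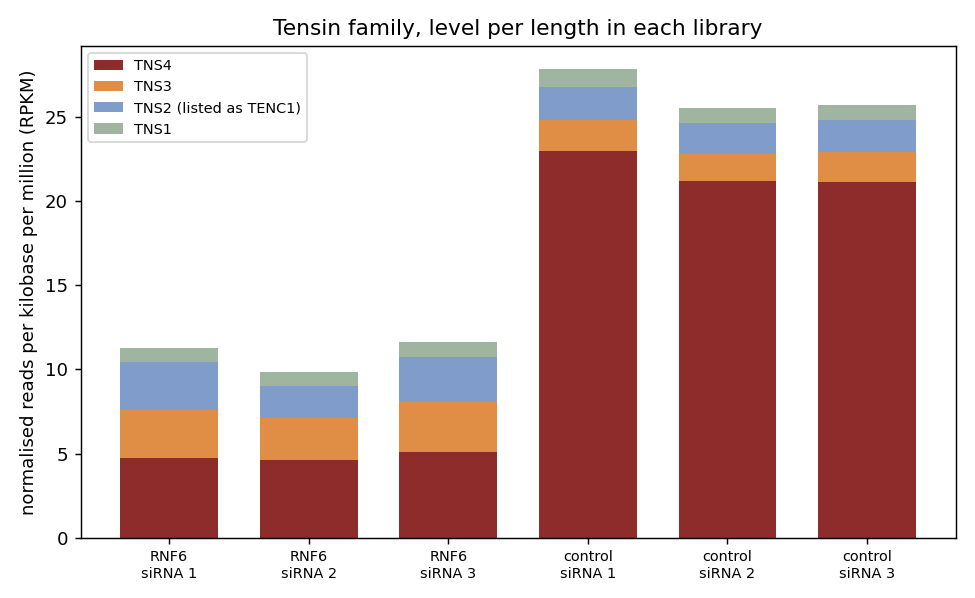
Stacked level of the 4 tensin genes per kilobase of annotated exons (RPKM) in each of the 6 libraries, RNF6 siRNA on the left and control siRNA on the right; each colour is 1 gene. TNS4 takes 44.4% of the stack on average with RNF6 siRNA and 82.6% with control siRNA, and the other tensins together stay between 4.31 and 6.52 RPKM.

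BCAR1, on chromosome 16, encodes p130Cas, the scaffold that Src family kinases phosphorylate at adhesions. It had 40.8, 33.4 and 39.5 CPM in RNF6 siRNA replicates 1, 2 and 3, against 56.0, 79.0 and 71.6 CPM in control siRNA replicates 1, 2 and 3. The groups did not overlap, with control siRNA replicate 1 the lowest of the controls. BCAR1 was 1.81-fold lower, at 37.9 ± 3.98 CPM with RNF6 siRNA and 68.9 ± 11.7 CPM with control siRNA (log2 fold change −0.86, SE 0.137, edgeR adjusted p = 4.80e-04), and the call held under all 13 alternatives. ZYX, on chromosome 7, encodes the LIM protein zyxin, which recruits Ena/VASP proteins to stressed actin. Its levels were 86.0, 74.5 and 78.3 CPM in RNF6 siRNA replicates 1, 2 and 3, against 100.8, 123.8 and 122.1 CPM in control siRNA replicates 1, 2 and 3. Here too control siRNA replicate 1 was the lowest control, yet it stood above every RNF6 siRNA library. ZYX was 1.45-fold lower, at 79.6 ± 5.83 CPM with RNF6 siRNA and 115.6 ± 12.8 CPM with control siRNA (log2 fold change −0.54, SE 0.112, adjusted p = 0.00292, called under all 13 alternatives).

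VCL, on chromosome 10, encodes vinculin. It had 263.3, 268.5 and 283.2 CPM with RNF6 siRNA and 381.8, 302.6 and 323.5 CPM with control siRNA, and the groups did not overlap. The means were 271.7 ± 10.3 CPM with RNF6 siRNA and 336 ± 41.0 CPM with control siRNA, a 1.24-fold lower level (log2 fold change −0.31, SE 0.104, edgeR adjusted p = 0.0375). Of the members' calls, only that of VCL ended under any alternative. With RNF6 siRNA replicate 1, 2 or 3 left out the adjusted p was 0.0912, 0.0991 or 0.0786, and with control siRNA replicate 1 or 3 left out it was 0.0929 or 0.0835, all above the threshold. Over all alternatives the adjusted p ran from 0.0101 to 0.130, and the value stayed negative. Exons of AP3M1 cover 11.1% of VCL, and reads there cannot be told apart without a stated strand setting.

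The remaining adaptors did not pass. PXN, on chromosome 12, which encodes paxillin, had 174.3, 153.6 and 181.9 CPM with RNF6 siRNA and 193.3, 191.3 and 203.1 CPM with control siRNA. All 3 RNF6 siRNA libraries were lower than all 3 control siRNA libraries, yet the interval of the log2 fold change reached from −0.41 to 0.01 (value −0.20, SE 0.0968, edgeR adjusted p = 0.124). Exons of other genes cover 12.4% of PXN, and 8.71% of BCAR1. PTK2, on chromosome 8, which encodes focal adhesion kinase, lay the other way, at 208.1, 223.8 and 213.2 CPM with RNF6 siRNA and 203.2, 173.3 and 183.1 CPM with control siRNA. Its groups did not overlap either, by a narrow gap to control siRNA replicate 1. The log2 fold change of PTK2 was 0.20 (SE 0.0956, adjusted p = 0.118), and without control siRNA replicate 1 it was 0.26 and passed (adjusted p = 0.0430). TLN1, on chromosome 9, which encodes talin 1, had 179.7, 159.3 and 201.5 CPM with RNF6 siRNA and 160.3, 161.6 and 181.5 CPM with control siRNA. These ranges overlapped, and the log2 fold change was 0.10, with a 95% interval of −0.13 to 0.34 (adjusted p = 0.494).

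ILK, on chromosome 11, had few reads, with 6, 14 and 18 reads with RNF6 siRNA and 8, 9 and 9 reads with control siRNA, or 1.41 ± 0.778 CPM with RNF6 siRNA and 1.02 ± 0.0715 CPM with control siRNA. Exons of other genes, mainly TAF10, cover 78.5% of ILK. Reads matching more than 1 gene were not counted by HTSeq, so the level listed for ILK is uncertain. No difference was detectable at these read counts (95% interval of the log2 fold change −0.58 to 1.35, edgeR adjusted p = 0.542).

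Of the 9 members other than TNS4, TNS3 was called higher, BCAR1, ZYX and VCL were called lower, and 5 did not pass. Among all genes tested 32.7% were called at an adjusted p below 0.05, 16.6% higher and 16.1% lower. For 7 of the 10 members, TNS4 included, the RNF6 siRNA and control siRNA libraries had no overlap, against 44.2% of all genes tested. Since the members were chosen with these results known, nothing is read from these shares. The median log2 fold change was −0.10 over the 9 and 0.01 over all genes tested.

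**Figure D3:**
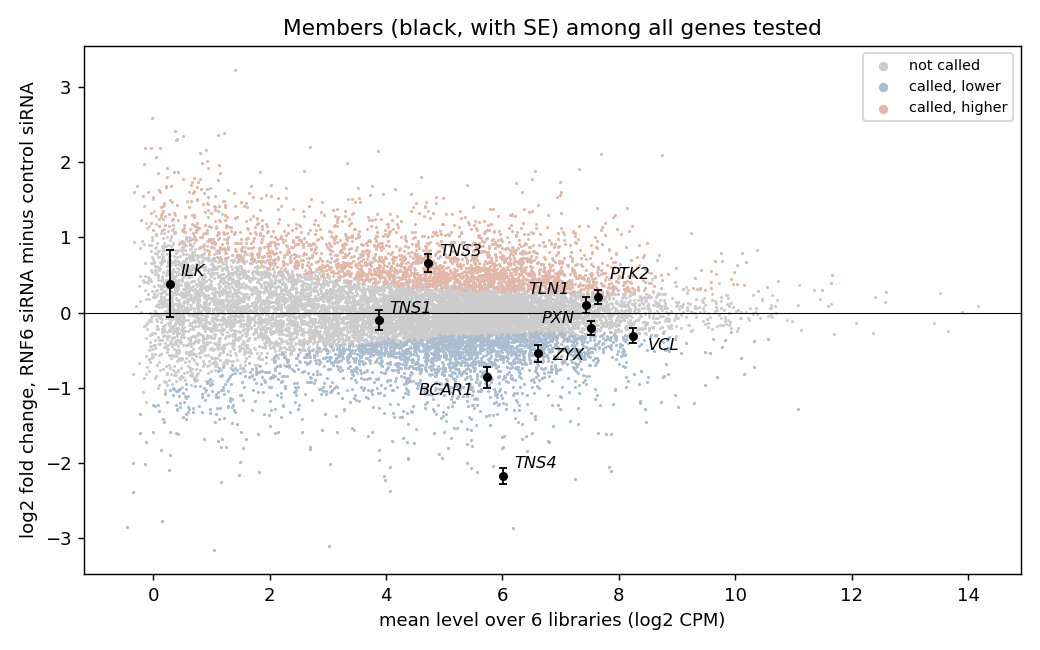
Log2 fold change (RNF6 siRNA minus control siRNA) against the mean log2 CPM over 6 libraries for all 14685 genes tested (small points, coloured by call), with the 10 genes in black and bars of 1 SE. TNS4 lies at −2.17, far below BCAR1 at −0.86, and TNS3 lies at 0.66.

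Per kilobase of annotated exons, the order of the members differed between the groups mainly through TNS4. With RNF6 siRNA, VCL led at 27.2 RPKM, followed by ZYX (22.9 RPKM) and PXN (22.8 RPKM), whose library ranges overlapped. TLN1 (17.9 RPKM) and PTK2 (15.6 RPKM) came next and overlapped each other, and TNS4 was the sixth at 4.84 RPKM, before BCAR1 at 4.13, TNS3 at 2.74, TNS1 at 0.866 and ILK at 0.405 RPKM. With control siRNA, VCL (33.6 RPKM) and ZYX (33.2 RPKM) overlapped at the top, PXN followed at 26.3 RPKM, and TNS4 was the fourth at 21.8 RPKM, ahead of TLN1 at 16.7 and PTK2 at 13.6 RPKM. BCAR1 at 7.503, TNS3 at 1.74, TNS1 at 0.934 and ILK at 0.294 RPKM closed that order. The place of ILK in both orders is uncertain, since reads shared with other genes were not counted. This ranking also depends on the length used. With the longest transcript, the order differed through PTK2 as well as TNS4. PTK2 then led with RNF6 siRNA at 43.4 RPKM. With control siRNA it had 37.6 RPKM, below ZYX, which led at 46.4 RPKM, and VCL at 42.0 RPKM. TNS4 was below TLN1 with RNF6 siRNA (5.77 against 20.4 RPKM) and above it with control siRNA (25.95 against 19.0 RPKM). By this length TNS4 was also below BCAR1 with RNF6 siRNA (8.13 RPKM for BCAR1).

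The members were also set beside TNS4 by their levels over the 6 libraries. Likeness was measured as the root mean square difference between log2 CPM values centred on each gene's own mean. With 2 groups, this difference mostly follows the gap in fold change to TNS4. TNS4 was chosen for its fold change, so the distances are a description. The nearest member was BCAR1, at a difference of 0.685, then ZYX at 0.827. Over 11735 genes that averaged 5 CPM or more, the 5 most alike were PLEKHA3 at 0.0925, CDC42 at 0.112, H2AFZ and MNAT1 both at 0.143, and NCEH1 at 0.151. Their log2 fold changes ran from −2.20 (CDC42) to −1.94 (MNAT1), against −2.17 for TNS4. PLEKHA3 had 6.43 CPM with RNF6 siRNA and 26.97 CPM with control siRNA. CDC42 had 54.5 CPM with RNF6 siRNA and 250.5 CPM with control siRNA, and other genes' exons cover 59.4% of it. H2AFZ, a histone variant gene, had 88.0 CPM with RNF6 siRNA and 364.4 CPM with control siRNA. MNAT1, a subunit gene of the CDK-activating kinase, had 8.57 CPM with RNF6 siRNA and 32.8 CPM with control siRNA, and NCEH1 had 16.8 CPM with RNF6 siRNA and 67.2 CPM with control siRNA.

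Promoters are shown for VCL, ZYX and BCAR1, the 3 adaptors called lower, of which VCL lost its call under 6 of 13 alternatives. Shared regulation of these genes was not tested. RefSeq windows on GRCh38.p14, from 250 bases before to 50 after an annotated start, existed for 8 of the 10 members, 19 windows in all. TNS4 and PTK2 had no entry. Both strands of the windows were searched for 4 motifs chosen with the expression results known: STAT (TTCNNNGAA), AP-1 (TGANTCA), TEAD (GGAATG) and the CArG box of serum response factor. No match overlapped another. The 250 bases before the start are printed 5′ to 3′ with matches in capitals, for VCL at chr10:73997866-73998115 on the plus strand, for ZYX at chr7:143381095-143381344 on the plus strand, and for the BCAR1 start farthest upstream at chr16:75268008-75268257 on the minus strand.
VCL promoter: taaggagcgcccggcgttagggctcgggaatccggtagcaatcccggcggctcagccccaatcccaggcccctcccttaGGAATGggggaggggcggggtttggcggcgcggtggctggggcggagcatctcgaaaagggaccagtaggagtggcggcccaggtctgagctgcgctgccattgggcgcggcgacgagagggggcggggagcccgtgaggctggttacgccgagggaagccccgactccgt
ZYX promoter: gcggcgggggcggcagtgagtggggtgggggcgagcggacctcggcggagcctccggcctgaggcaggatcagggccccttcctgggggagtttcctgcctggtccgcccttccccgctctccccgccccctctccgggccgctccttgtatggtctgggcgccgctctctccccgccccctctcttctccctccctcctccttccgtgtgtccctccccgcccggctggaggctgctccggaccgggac
BCAR1 promoter: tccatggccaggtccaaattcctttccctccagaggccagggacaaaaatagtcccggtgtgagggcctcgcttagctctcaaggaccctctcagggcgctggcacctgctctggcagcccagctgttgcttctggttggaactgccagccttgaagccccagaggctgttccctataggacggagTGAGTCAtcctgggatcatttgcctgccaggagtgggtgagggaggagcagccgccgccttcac

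The VCL window holds a TEAD match 171 bases before the start and the BCAR1 window an AP-1 match 64 bases before it, while the ZYX window holds none of the 4 motifs. Counted per window, a STAT match was found in 2 of the 19 (1 of PXN and another BCAR1 start), an AP-1 match in 1 (BCAR1), a TEAD match in 4 (of TNS1, VCL and PXN) and a CArG box in 0. The windows of 1 gene are alternative starts and are not independent. The share of 35116 single promoter windows of the same length with a match was 7.66% for STAT, 7.71% for AP-1, 14.0% for TEAD and 1.29% for the CArG box. A match is a description of letters and not a measured site.

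The other genes of the focal adhesion were grouped by role in 6 lists of adaptors and 1 of integrin chains, drawn up with earlier results of these data known. Of 82 listed genes 73 were tested, and 13 were higher, 13 lower and 47 did not pass, with a median log2 fold change of 0.00. Calls thus made up 35.6% of the tested genes in the lists, near the 32.7% of all genes.

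The proteins that link integrins to actin gave 1 higher and 3 lower of 13 tested genes, with a median log2 fold change of −0.10. FERMT1, which encodes the epithelial kindlin that activates integrins together with talin, was 1.77-fold lower, at 19.1 ± 1.48 CPM with RNF6 siRNA and 34.0 ± 3.83 CPM with control siRNA (edgeR adjusted p = 3.77e-04). KANK1, whose protein binds talin at the rim of adhesions, was 1.52-fold higher, at 35.4 ± 1.62 CPM with RNF6 siRNA and 23.4 ± 2.40 CPM with control siRNA (adjusted p = 0.00219). The filamin gene FLNC, named after its values were seen, was 1.27-fold lower (adjusted p = 0.0335). Its call ended without RNF6 siRNA replicate 2 (0.130) or 3 (0.0655) and without control siRNA replicate 3 (0.173), which left 2 lower genes in each case. Without control siRNA replicate 1, TLN2, the gene of talin 2, also named after its values were seen, was lower (adjusted p = 0.0187).

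Among 8 tested genes around paxillin, 1 was higher and 2 were lower, with a median of −0.11. ARHGEF7, which encodes the exchange factor beta-PIX, was 1.59-fold lower, at 57.0 ± 1.59 CPM with RNF6 siRNA and 90.6 ± 5.14 CPM with control siRNA (edgeR adjusted p = 3.07e-04). TGFB1I1, the gene of the paxillin relative Hic-5, was 1.90-fold lower at a low level, 3.16 ± 0.267 CPM with RNF6 siRNA and 5.98 ± 0.445 CPM with control siRNA (adjusted p = 0.00258). PAK2, a kinase that binds PIX proteins, was 1.47-fold higher, at 155.4 ± 8.18 CPM with RNF6 siRNA and 105.9 ± 14.0 CPM with control siRNA (adjusted p = 0.00235). Without RNF6 siRNA replicate 3 (adjusted p = 0.0193) or control siRNA replicate 2 (0.0406), GIT2, named after its values were seen, was also lower, making 3 lower genes.

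LPP and TRIP6, zyxin family genes, were higher, whereas ZYX was lower. Of 12 tested genes of zyxin relatives, Ena/VASP proteins and LIM adaptors, 5 were higher and 2 lower, with a median of 0.15. LPP had 96.3, 130.3 and 130.9 CPM in RNF6 siRNA replicates 1, 2 and 3, against 84.5, 47.8 and 60.3 CPM in control siRNA replicates 1, 2 and 3. The groups did not overlap, and the level was 1.86-fold higher (edgeR adjusted p = 0.00244). TRIP6 was 1.52-fold higher, at 53.0 ± 6.04 CPM with RNF6 siRNA and 34.9 ± 0.475 CPM with control siRNA (adjusted p = 0.00158). FHL2, a LIM-only protein gene, averaged 73.5 ± 6.82 CPM with RNF6 siRNA and 99.6 ± 7.60 CPM with control siRNA, 1.35-fold lower (adjusted p = 0.00848), and its call ended without RNF6 siRNA replicate 3 (0.0557).

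The rest of the called genes in this list were named after their values were seen. They were TES (1.24-fold higher, edgeR adjusted p = 0.0191), EVL (1.40-fold higher, adjusted p = 0.0209), AJUBA (1.24-fold higher, adjusted p = 0.0438) and PDLIM7 (1.31-fold lower, adjusted p = 0.0410). The call of TES ended without RNF6 siRNA replicate 2 (0.0713) and without control siRNA replicate 2 (0.0563) or 3 (0.0875). The call of EVL ended without RNF6 siRNA replicate 1 (0.0598) or 3 (0.0726) and without control siRNA replicate 3 (0.107). The call of AJUBA ended without RNF6 siRNA replicate 1 (0.0797), 2 (0.0530) or 3 (0.205) and without control siRNA replicate 2 (0.0919) or 3 (0.183). The call of PDLIM7 ended without RNF6 siRNA replicate 2 (0.155) or 3 (0.135) and without control siRNA replicate 2 (0.126) or 3 (0.106). The list then gave 4 calls without replicate 2 of either group and 3 without replicate 3 of either group, with 0 lower genes without RNF6 siRNA replicate 3, and LPP and TRIP6 were called in all of these fits.

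Signalling partners of focal adhesion kinase, Src and Cas gave 3 higher and 2 lower of 13 tested genes, with a median of 0.04. RAPGEF1, which encodes a Rap1 exchange factor that is recruited through Crk to phosphorylated p130Cas, had 17.7, 15.9 and 18.9 CPM in RNF6 siRNA replicates 1, 2 and 3, against 45.8, 47.2 and 43.7 CPM in control siRNA replicates 1, 2 and 3. The groups stood well apart, a 2.58-fold lower level (edgeR adjusted p = 4.42e-06). CSK, the kinase gene whose product inhibits Src family kinases, was 1.76-fold higher, at 65.5 ± 6.40 CPM with RNF6 siRNA and 37.1 ± 6.14 CPM with control siRNA (adjusted p = 5.33e-04). PTK2B, the gene of the PTK2 relative PYK2, averaged 15.1 ± 1.199 CPM with RNF6 siRNA and 23.4 ± 1.79 CPM with control siRNA, 1.54-fold lower (adjusted p = 0.00257). Named after their values were seen, the other higher genes were DOCK1, the gene of a Rac exchange factor that binds p130Cas through Crk, at 1.44-fold (adjusted p = 0.00378), and the Cas family gene CASS4. CASS4 had 12, 8 and 15 reads with RNF6 siRNA and 1, 5 and 4 reads with control siRNA (adjusted p = 0.0183), and its call ended without control siRNA replicate 1 (0.0545) or 3 (0.0631). Without RNF6 siRNA replicate 3, CASS4 had too few reads to be tested, which left 2 higher genes. Without control siRNA replicate 1, YES1, a Src family kinase gene named after its values were seen, was higher (adjusted p = 0.00337).

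Among 16 tested integrin chains, 3 were higher and 4 lower, with a median of −0.20. ITGA2, the alpha chain of a collagen receptor, had 89.3, 122.2 and 111.6 CPM in RNF6 siRNA replicates 1, 2 and 3, against 409.4, 263.1 and 318.0 CPM in control siRNA replicates 1, 2 and 3. The groups did not overlap although the controls were spread widely, and the level was 3.07-fold lower (edgeR adjusted p = 1.25e-05). ITGB5, the beta chain of a vitronectin receptor, was 1.89-fold lower, at 64.8 ± 3.82 CPM with RNF6 siRNA and 122.5 ± 7.78 CPM with control siRNA (adjusted p = 3.61e-05). ITGA3, the alpha chain of a laminin receptor, averaged 312.3 ± 23.5 CPM with RNF6 siRNA and 561.1 ± 41.4 CPM with control siRNA, 1.80-fold lower (adjusted p = 5.39e-05). ITGB1, the beta chain that pairs with ITGA2 and ITGA3, named after its values were seen, had 388.2 ± 59.5 CPM with RNF6 siRNA and 447.5 ± 66.7 CPM with control siRNA and did not pass (adjusted p = 0.246).

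The other called chains were named after their values were seen. ITGA5, of the fibronectin receptor, was 1.35-fold lower (edgeR adjusted p = 0.00365), and ITGA9 was 3.14-fold higher at a low level, 7.36 ± 0.981 CPM with RNF6 siRNA and 2.35 ± 0.647 CPM with control siRNA (adjusted p = 1.79e-04). ITGB8 was 1.69-fold higher (adjusted p = 0.0355), a call that ended without RNF6 siRNA replicate 2 (0.0995) or 3 (0.162) and without control siRNA replicate 2 (0.0712) or 3 (0.131). ITGB7, 42.1% covered by other exons, was 1.79-fold higher (adjusted p = 0.0321), a call that ended without RNF6 siRNA replicate 1 (0.126) or 3 (0.0890) and without control siRNA replicate 1 (0.0541), 2 (0.0881) or 3 (0.101). ITGA9 alone was then higher without RNF6 siRNA replicate 3 or control siRNA replicate 2 or 3. Without control siRNA replicate 2, ITGA6 was also lower (adjusted p = 0.0225), making 5 lower chains.

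The tensin and ILK lists had no call. Of 6 tested genes of the tensin family and its partners, TNS2 included, edgeR called 0, as did DESeq2 and limma-voom, and 3 had an unadjusted edgeR p below 0.05. The genes named here were picked after their values were seen. MET, the receptor whose turnover TNS4 is reported to slow, had 317.1 ± 19.8 CPM with RNF6 siRNA and 386.7 ± 72.6 CPM with control siRNA (adjusted p = 0.0949), and CTNNB1, the beta-catenin gene, 516.7 ± 22.3 CPM with RNF6 siRNA and 451.1 ± 12.6 CPM with control siRNA (adjusted p = 0.110). Without control siRNA replicate 2, MET was lower (adjusted p = 0.00990), and without control siRNA replicate 1, CBL was higher (0.0292). Of 5 tested genes of the PINCH and parvin complex, which holds ILK, edgeR called 0, as did DESeq2 and limma-voom, with 2 at an unadjusted edgeR p below 0.05. RSU1 of that complex was lower without control siRNA replicate 1 (adjusted p = 0.0171). The 32.7% of all genes that were called also pass the unadjusted threshold, so nothing is read from the unadjusted counts of either list. The medians of these lists were 0.14 and −0.27.

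**Figure D4:**
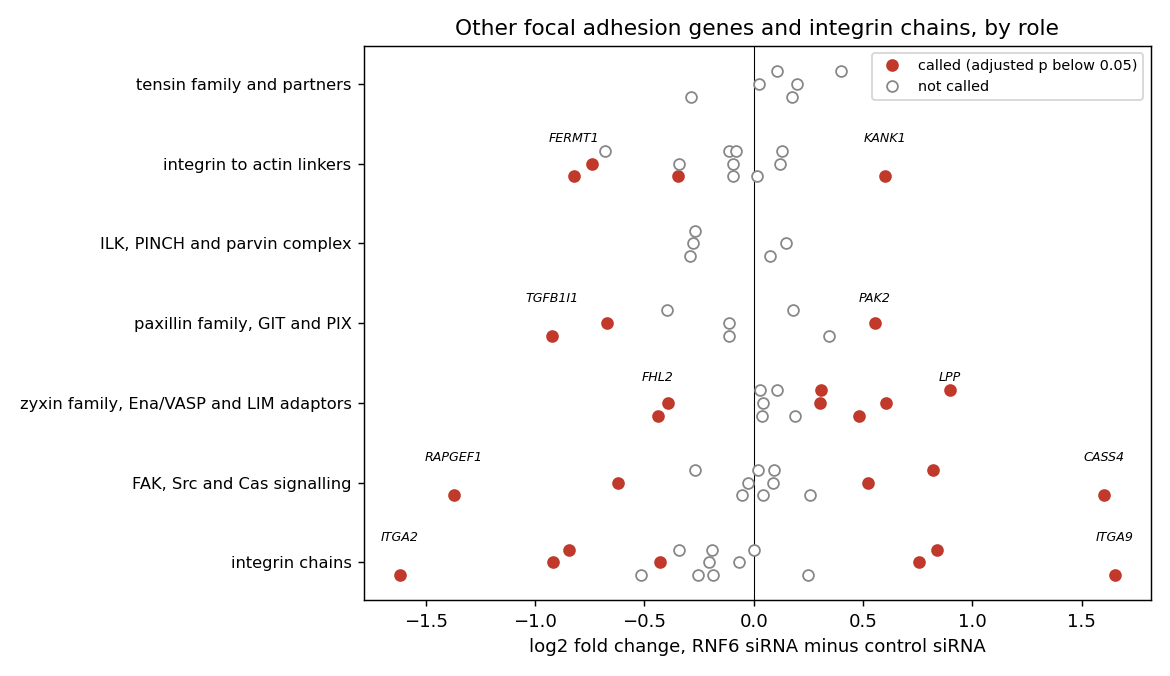
Log2 fold change (RNF6 siRNA minus control siRNA) of the tested genes in 7 lists of other focal adhesion genes, 1 row per list; filled points passed an adjusted p of 0.05 and open points did not. Called genes lie on both sides of 0 in 5 lists, from ITGA2 and RAPGEF1 on the left to ITGA9 and CASS4 on the right, and the tensin and ILK lists have none.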

How the data were processed

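RNA-seq read counts per gene were deposited by the authors as 1 table per library, for 3 RNF6 siRNA and 3 control siRNA libraries made with an Illumina TruSeq kit from total RNA, per the labels' protocols. TopHat2 2.0.11, HTSeq and build hg19/GRCh37 are named, per the submitters' processing notes. Strand setting, annotation release and read filters were not given in the sources used here. Rows that name no gene held 27.3% to 29.4% of a library's counts and were left out.

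Counts were analysed as deposited with edgeR 4.0.16 in R 4.3.3: filterByExpr (minimum count 10, minimum total 15), TMM scaling, and a robust two-sided quasi-likelihood test of the group alone over all 6 libraries. Adjusted p-values are Benjamini-Hochberg over 14685 genes, with calls at 0.05. The method was also run on counts simulated from the levels and spread of these same libraries. Its outcome is not given here, and nothing is drawn from it. No pair of libraries of a group agreed within sampling noise. The common biological coefficient of variation was 10.5%. RPKM used exon lengths of GENCODE 29, which annotates GRCh38 and not the build of the counts. The only coordinates given are those of the printed promoter sequences, on GRCh38.p14. DESeq2 1.42.0 and limma 3.58.1 served as alternatives.

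The members and gene lists were chosen with earlier results of these data known. Genes named are the members, RNF6, up to 3 called genes with the smallest adjusted p per list, and the 5 most like TNS4; exceptions are marked, and 1 gene that the rule selects is not reported here.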

Additional observations from a re-analysis of the deposited data

How the results depend on the processing

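Over all genes, 4806 were called, 2442 higher and 2364 lower. With the replicate number as a block, 2742 were called, 1421 higher and 1321 lower. Leaving out 1 library gave between 3007 and 5877 calls, with 1514 to 2910 higher and 1478 to 2967 lower. No pairing of the libraries by replicate number was seen, although so few libraries cannot show that there is none. Correlations of deviations between same-numbered libraries were −0.463, −0.252 and 0.0519, and 0 of 6 libraries correlated best with their own number. With the block, 4 of the 10 members were called, VCL no longer (adjusted p = 0.130), and 2 genes of the zyxin list. The block also ended the calls of FLNC (adjusted p = 0.0994), FHL2 (0.0623), TES (0.102), EVL (0.0793), PDLIM7 (0.150), AJUBA (0.161), ITGB7 (0.0886) and ITGB8 (0.0820). Leaving out 1 library gave 1 to 2 higher members, 0 to 2 calls in the tensin list, 0 to 1 in the ILK list and 3 to 7 in the zyxin list. Other settings that kept all libraries also ended calls of genes named from the lists. Without the filter on low counts these were TES (adjusted p = 0.0546), AJUBA (0.125) and ITGB7 (0.0781), with DESeq2 AJUBA (0.0753), CASS4 (0.0631) and ITGB7 (0.139), and with upper-quartile factors PDLIM7 (0.0526). TNS3, ZYX and BCAR1 kept their calls under all 13 alternatives, and no result reversed. The share of TNS4 in the tensin family was 37.7% with RNF6 siRNA and 78.3% with control siRNA when lengths came from the longest transcript. Across scalings the median log2 fold change of all genes was at most 0.0242, with upper-quartile factors. Few counted reads limit ILK, with at most 18 in a library, and exons of other genes cover 78.5% of it.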
